A study of Mus musculus with 4 samples.

Results

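The E2F transcription factors and the pocket proteins that hold them form the control point at which a cell commits to copying its DNA. The 10 genes described here are E2f1, E2f2, E2f3, E2f4, E2f5, E2f6, E2f7, E2f8, Rb1 and Rbl1. They were picked out of the count table by gene symbol, with no threshold on their values, and are 10 of its 24391 genes. Levels were measured by RNA-Seq in 4 libraries of Beko cells, a mouse progenitor T-cell line in which Notch signaling is constitutively active. Both conditions received the γ-secretase inhibitor (GSI) DAPT for 48 h. In the 2 GSI libraries the RNA is from cells at the end of this treatment. In the 2 washout libraries the cells were afterwards washed free of the inhibitor and cultured for a further 24 h, which lets γ-secretase release the Notch intracellular domain again. The labels give the dose as 10 mg/ml, whereas the methods of the study state it in μg/ml, and fresh inhibitor was added midway through the treatment. Cells without inhibitor were not part of this comparison, so that the return of Notch signaling, the extra wash and the longer culture cannot be told apart. Neither do the labels say whether replicates were separate cultures, and p-values therefore measure only the spread between these libraries, which may be technical.

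E2F factors bind DNA as dimers with a DP protein. E2f1, E2f2 and E2f3 are known as activators of the genes for DNA replication, E2f4 and E2f5 act mainly as repressors together with pocket proteins, and E2f6 represses within Polycomb-type complexes. The atypical factors E2f7 and E2f8 bind without a DP partner and switch the same genes off later in the cycle. Rb1 binds mainly the activators and Rbl1 (p107) mainly the repressors, until kinases driven by D-type and E-type cyclins phosphorylate the pocket proteins and set the E2Fs free. In T-cell leukemia, Notch signaling is known to drive entry into the cell cycle.

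Upon washout, 8 of the 10 genes were higher at an adjusted p-value under 0.05: the 3 activators, E2f4, E2f5, E2f6, E2f8 and Rbl1. Their log2 fold changes lay between 0.50 (E2f4) and 1.10 (E2f6). E2f7 did not pass the test in either direction, and Rb1, with a log2 fold change of -0.64, was the only member with a negative value and missed the threshold at an adjusted p-value of 0.0775 (edgeR quasi-likelihood test, Benjamini-Hochberg adjustment over 12266 genes). Among all genes tested, 27.0% were higher and 25.4% lower by the adjusted p-value alone. With the additional requirement of a log2 fold change above 1 or below -1, 2 members (E2f1 and E2f6) were higher and 0 lower, against 7.74% and 11.7% of all genes tested. Which members exceeded a log2 fold change of 1 changed when 1 library was left out at a time. Without GSI replicate 1, E2f1 and E2f6 were at 0.799 and 0.924, and E2f5 was at 1.009. The lowest washout library lay above the highest GSI library for 8 members and the order was reversed for 1, Rb1, which compares with 38.2% and 39.1% of all genes tested. The median log2 fold change was 0.855 over the members and -0.01 over all genes tested.

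The start regions of some members hold the DNA words that E2Fs themselves bind. Windows from 250 bases before to 50 bases after the transcription start were taken from RefSeq (GRCm38.p6) and matched 7 of the 10 members, with 9 windows. For E2f4, E2f5 and Rb1 no window was used here. Each window was searched on both strands for 4 E2F words, TTTCCCGC, TTTGGCGC, TTTCGCGC and TTTGCCGC. At least 1 word was found in 1 of the 9 windows each for E2f2, E2f3, E2f7 and Rbl1. Of the 11481 windows of genes tested, 3.95% held a word, a share counted by window and not by gene. The RefSeq window of E2f1 holds none and lies inside the longest annotated E2f1 transcript. A window of the same length at the start of that transcript, read from the mm9 genome with the GENCODE vM1 annotation, holds a pair of words. Such an extra window was read for E2f1 and for no other member, and the share of 3.95% covers RefSeq windows only. The 5 windows with a word are shown because they carry the binding words of the members' own family. They run 5′ to 3′ on the gene's strand, with the E2F words in capitals on whichever strand the word reads.
E2f1 (mm9, chr2:154395579-154395878, minus strand): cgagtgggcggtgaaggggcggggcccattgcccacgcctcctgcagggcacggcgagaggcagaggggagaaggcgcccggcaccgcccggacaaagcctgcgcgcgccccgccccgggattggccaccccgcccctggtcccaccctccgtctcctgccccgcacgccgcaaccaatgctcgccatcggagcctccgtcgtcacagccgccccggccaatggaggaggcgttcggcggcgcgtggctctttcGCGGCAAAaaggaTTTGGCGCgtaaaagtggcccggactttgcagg
E2f2 (GRCm38.p6, chr4:136172024-136172323, plus strand): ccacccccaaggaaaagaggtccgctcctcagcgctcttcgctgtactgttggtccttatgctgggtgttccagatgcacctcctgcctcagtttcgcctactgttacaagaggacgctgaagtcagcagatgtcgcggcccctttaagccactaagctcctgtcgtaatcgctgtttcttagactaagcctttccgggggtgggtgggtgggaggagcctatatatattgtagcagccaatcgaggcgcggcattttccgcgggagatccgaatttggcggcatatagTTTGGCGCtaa
E2f3 (GRCm38.p6, chr13:29986014-29986313, minus strand): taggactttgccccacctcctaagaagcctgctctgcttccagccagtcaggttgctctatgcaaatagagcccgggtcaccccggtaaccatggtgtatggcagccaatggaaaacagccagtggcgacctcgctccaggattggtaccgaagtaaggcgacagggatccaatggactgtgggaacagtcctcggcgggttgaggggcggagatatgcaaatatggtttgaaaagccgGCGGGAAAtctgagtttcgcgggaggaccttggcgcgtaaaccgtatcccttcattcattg
E2f7 (GRCm38.p6, chr10:110745189-110745488, plus strand): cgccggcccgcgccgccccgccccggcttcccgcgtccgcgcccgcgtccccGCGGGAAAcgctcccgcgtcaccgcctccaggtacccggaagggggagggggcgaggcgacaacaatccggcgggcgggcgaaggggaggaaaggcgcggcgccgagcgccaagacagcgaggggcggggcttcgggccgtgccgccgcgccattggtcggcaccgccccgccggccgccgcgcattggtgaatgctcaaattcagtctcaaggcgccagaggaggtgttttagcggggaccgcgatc
Rbl1 (GRCm38.p6, chr2:157204485-157204784, minus strand): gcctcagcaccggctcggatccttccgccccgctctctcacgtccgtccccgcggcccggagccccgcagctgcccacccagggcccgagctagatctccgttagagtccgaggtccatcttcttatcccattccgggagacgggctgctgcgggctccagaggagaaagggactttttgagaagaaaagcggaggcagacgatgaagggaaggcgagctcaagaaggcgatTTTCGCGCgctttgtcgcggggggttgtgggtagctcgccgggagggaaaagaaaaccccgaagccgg

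Counted from the transcription start, the words of E2f1 lie at +5 to +12 and +18 to +25, that of E2f2 at +40 to +47, that of E2f3 at -11 to -4, that of Rbl1 at -18 to -11 and that of E2f7 further upstream at -198 to -191. The remaining window of E2f2, the remaining window of E2f3 and those of E2f6 and E2f8 hold none of the 4 words. Of 29 genes of DNA replication and S phase with a window, described below as E2F targets, 13 held an E2F word. Counted by window, the share was 39.39% of 33, against 3.95% for the windows of genes tested. The RBPJ word TGGGAA was found only in the E2f3 window shown, at -70 to -65, and its variant TGAGAA only in the Rbl1 window, at -72 to -67. These short words are common, in 22.93% and 14.65% of the windows of genes tested, and the word TTTCCCGC, read on the other strand, shares the letters GGGAA with the former. TTTGAA, the CHR element through which cell cycle genes are repressed, occurred in a window of E2f2, E2f3 and E2f8 (11.91% of the windows of genes tested). A match of letters is a description of the sequence, and binding was not measured in these libraries.

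**Figure D1:**
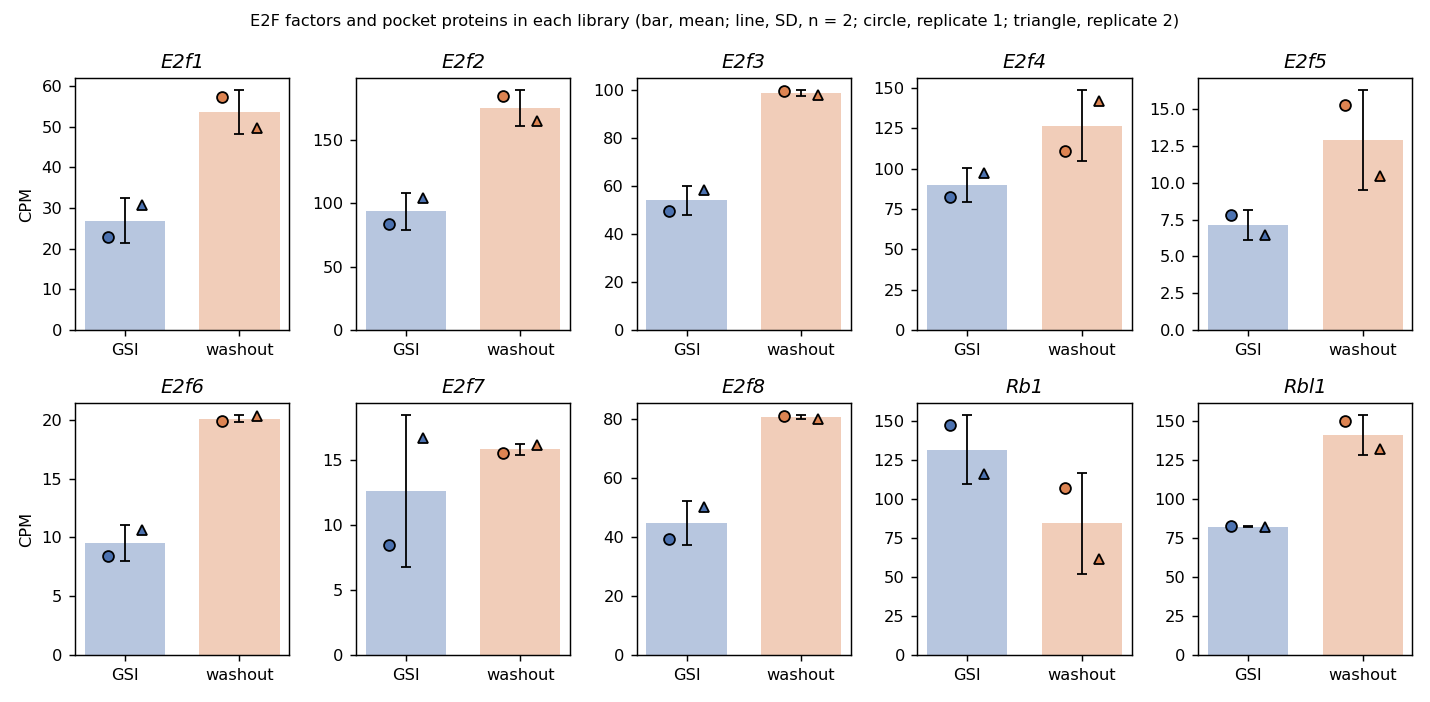
Level of each member in CPM (linear axes that start at 0, 1 panel per gene), with bars for the mean of the GSI (blue) and washout (orange) libraries, lines for the SD (n = 2), circles for replicate 1 and triangles for replicate 2. Both washout points lie above both GSI points for 8 members, the points of E2f7 overlap, and both washout points of Rb1 lie below both GSI points.

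The activators E2f1, E2f2 and E2f3 rose together. E2f1 (chr2:154385143-154395628, mm9, as for all gene positions below), the family's founding member, stood at 22.9 and 30.7 CPM in GSI replicates 1 and 2 and at 57.3 and 49.7 CPM in washout replicates 1 and 2. CPM are counts scaled to the library total and its normalization factor. Both washout libraries exceeded both GSI libraries, and the log2 fold change was 1.013 ± 0.165 (SE, n = 2 per condition, adjusted p = 0.00345, edgeR). Its 95% interval, 0.613 to 1.412, reaches well below 1, and the limit of 1 was no longer passed without GSI replicate 1 (0.799) or without washout replicate 1 (0.911).

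E2f2 (chr4:135728309-135751972), the activator that is abundant in lymphoid cells, stood at 83.5 and 104 CPM in the GSI libraries and at 185 and 165 CPM in the washout libraries. It rose 1.88-fold (log2 fold change 0.907 ± 0.133, adjusted p = 0.00234, edgeR). E2f3 (chr13:29998444-30077537), whose locus gives rise to an activating and a shorter isoform that gene counts do not separate, gave 49.8 and 58.3 CPM with the inhibitor and 99.6 and 98.0 CPM after its removal. The libraries of the 2 conditions did not overlap for either gene, and E2f3 rose 1.83-fold (log2 fold change 0.875 ± 0.108, adjusted p = 0.0013, edgeR). The intervals of the 3 activators overlapped widely, from 0.584 to 1.231 for E2f2 and from 0.612 to 1.138 for E2f3, so that no order of response among them can be given. All 3 kept an adjusted p-value under 0.05 under each of 12 alternative settings.

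All 3 repressors rose, with the largest value for E2f6 and the smallest for E2f4, whose intervals (0.701 to 1.494 and 0.135 to 0.862) overlap. E2f6 (chr12:16817771-16833549) stood at 8.41 and 10.6 CPM in the GSI libraries and at 19.9 and 20.3 CPM in the washout libraries. These values do not overlap, and the log2 fold change of 1.10 ± 0.164 was the largest of the 10 members (2.14-fold, adjusted p = 0.00247, edgeR). It passed the adjusted p-value under all 12 settings, with log2 fold changes from 0.898 to 1.269, and fell short of 1 without GSI replicate 1 (0.924). The libraries were scaled by TMM. Scaling by the total count alone lowered the log2 fold change of each member, with the median of all genes tested at -0.209, and no member then exceeded a log2 fold change of 1. Of all genes past both thresholds, 39.8% were higher ones with TMM and 23.0% with the total count.

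E2f4 (chr8:107821563-107829269), the E2F that is most abundant in quiescent cells, stood at 82.1 and 97.2 CPM in the GSI libraries and at 111 and 142 CPM in the washout libraries. The values do not overlap, but the washout libraries lay further apart than GSI replicate 2 and washout replicate 1. The log2 fold change was 0.499 ± 0.15 (adjusted p = 0.032, edgeR). The adjusted p-value rose to 0.127 with the total count alone, to 0.16 without GSI replicate 1 and to 0.0715 without washout replicate 2. E2f5 (chr3:14578671-14606308) was the least counted member, with 94 reads in GSI replicate 2, and rose from 7.85 and 6.44 CPM to 15.3 and 10.5 CPM. Washout replicate 1 was the high library, and the log2 fold change was 0.855 ± 0.235 (adjusted p = 0.0233, edgeR). E2f5 no longer passed the adjusted p-value with the total count alone (adjusted p = 0.059, edgeR). Neither did it pass without GSI replicate 2 or without washout replicate 1, at log2 fold changes of 0.743 and 0.548.

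Of the atypical factors, E2f8 passed the test and E2f7 did not, and the difference between them was not tested. E2f8 (chr7:56121799-56136966) stood at 39.3 and 50 CPM in the GSI libraries and at 80.9 and 80.0 CPM in the washout libraries. No values overlapped, and E2f8 rose 1.81-fold (log2 fold change 0.855 ± 0.133, adjusted p = 0.00283, edgeR), with an adjusted p-value under 0.05 under all 12 settings. Of its exon bases, 274 are shared with Gm2788 on the other strand, and the strand setting of the counting is not given in the sources used here.

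E2f7 (chr10:110182495-110224440) stood at 8.44 and 16.7 CPM in the GSI libraries and at 15.5 and 16.1 CPM in the washout libraries. The 2 washout libraries were alike, while GSI replicate 2 stood at their level and GSI replicate 1 below it. The log2 fold change was 0.359 ± 0.309 (adjusted p = 0.367, edgeR), with an interval from -0.391 to 1.109 that holds both no change and a change of the size seen for E2f8. The value depended on single GSI libraries: it was -0.088 (adjusted p = 0.762) without GSI replicate 1 and 0.916 (adjusted p = 0.0167) without GSI replicate 2.

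**Figure D2:**
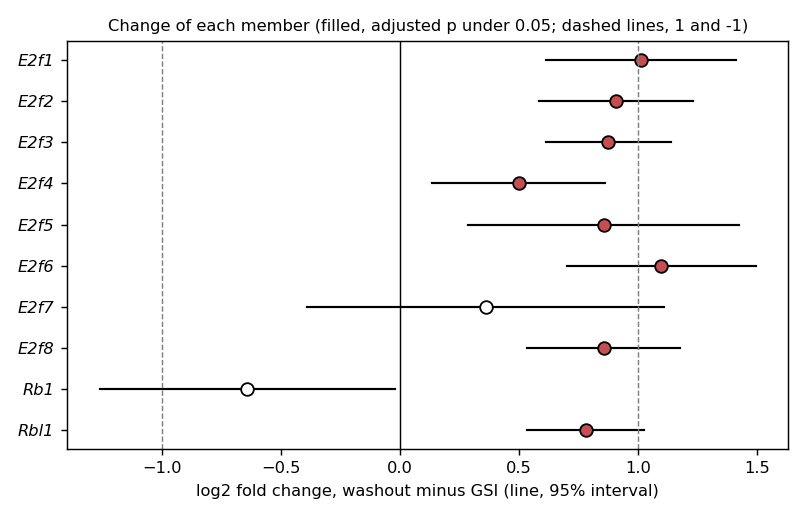
Log2 fold change of each member, washout minus GSI, with 95% intervals of the edgeR fit as bars, a solid line at 0 and dashed lines at -1 and 1. The intervals of 8 members lie above 0, that of E2f7 runs from -0.391 to 1.109, and that of Rb1 from -1.263 to -0.02.

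The pocket proteins Rbl1 and Rb1 had log2 fold changes of opposite sign, and only that of Rbl1 passed the test. Rbl1 (chr2:156971629-157030270), itself known as a gene under E2F control, stood at 82.5 and 82.0 CPM in the GSI libraries and at 150 and 132 CPM in the washout libraries. It rose 1.72-fold (log2 fold change 0.779 ± 0.102, adjusted p = 0.00157, edgeR) and passed under all 12 settings. Rb1 (chr14:73583480-73725629), the retinoblastoma protein gene, stood at 147 and 116 CPM in the GSI libraries and at 107 and 61.5 CPM in the washout libraries. Both washout values are below both GSI values, but in each condition replicate 2 was the lower library, and GSI replicate 2 and washout replicate 1 were close to each other.

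The test of Rb1 gave a log2 fold change of -0.642 ± 0.256, with an adjusted p of 0.0775 (edgeR). The estimate was negative under all 12 settings and passed the adjusted p-value under 7 of them, including DESeq2 (-0.628, adjusted p = 0.0178). These 7 do not weigh alike: the standard error was 0.122 without a filter and 0.0948 with the replicate number in the model, against 0.256 here. The washout libraries decided its size: it was -1.10 (adjusted p = 0.00052) without washout replicate 1 and -0.292 (adjusted p = 0.145) without washout replicate 2. Rb1 shares 408 exon bases with Lpar6 and 488 with Rcbtb2, both on the other strand. Lpar6 fell, with a log2 fold change of -2.42 (116 and 104 CPM, then 22.8 and 17.8 CPM), and Rcbtb2 fell as well, at -0.945 (380 and 345 CPM, then 195 and 181 CPM). The part of these neighbors in the counts of Rb1 was not tested.

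Rbl2 (p130), the remaining pocket protein and no member of the set, went from 122 and 117 CPM to 62.1 and 54.2 CPM, without overlap. It fell by 1.035 on the log2 scale (adjusted p = 0.000698, edgeR).

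**Figure D3:**
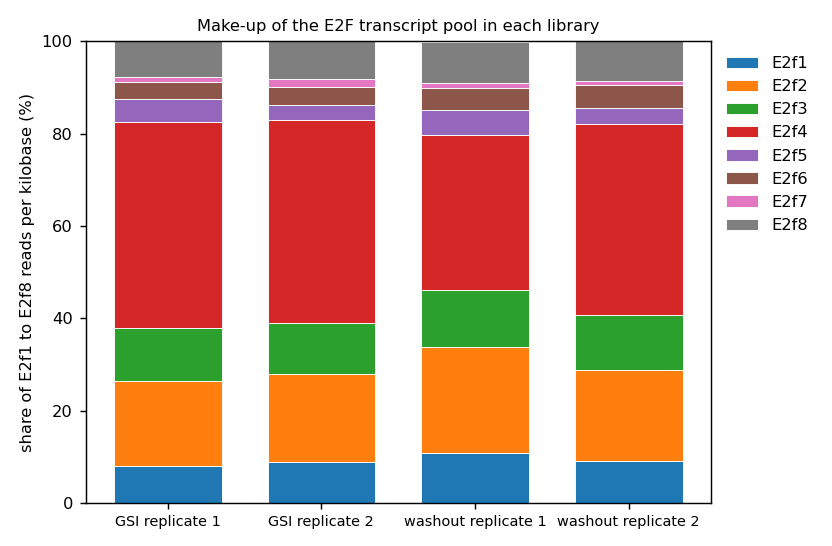
Share of each E2F gene in the summed RPKM of E2f1 to E2f8 in each of the 4 libraries, in percent, as stacked bars that start at 0. E2f4 takes the largest share in every library, from 33.6% to 44.8%, and its share is lower in both washout libraries.

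To compare members with each other, counts were divided by exon length (RPKM, with the union of annotated exons). In GSI the mean level per length was highest for E2f4 at 45.0 RPKM, followed by Rb1 at 21.9, E2f2 at 19.2, whose libraries overlap with those of Rb1, Rbl1 at 13.7 and E2f3 at 11.3 RPKM. E2f1 and E2f8 lay at 8.49 and 8.2 RPKM, a difference within their spread between libraries. E2f5 and E2f6 at 4.09 and 3.86 RPKM did not differ beyond that spread either, and E2f7 was lowest at 1.40 RPKM.

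Upon washout E2f4 at 63.6 RPKM and E2f7 at 1.75 RPKM kept the ends of this order. E2f2 followed E2f4 at 35.9 RPKM, then Rbl1 at 23.5, E2f3 at 20.6, E2f1 at 17.0, E2f8 at 14.8, Rb1 at 14.0, E2f6 at 8.2 and E2f5 at 7.37 RPKM. Rb1 thus stood at rank 2 of 10 in GSI and at rank 7 upon washout, where its libraries at 17.7 and 10.2 RPKM overlap with those of E2f1 and E2f8. The libraries of E2f6 and E2f5 overlapped as well. Rank rests on exon lengths between 1748 bases (E2f5) and 9009 bases (E2f7), and isoforms of other length would move it.

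Ratios within a library do not depend on how libraries are scaled. The summed RPKM of the activators over that of E2f4, E2f5 and E2f6 had log2 values of -0.50 and -0.396 in GSI and 0.082 and -0.292 upon washout. The 2 conditions did not overlap, although washout replicate 2 was closer to GSI than to washout replicate 1. E2f4 made up 44.8% and 44.0% of all E2F RPKM in GSI and 33.6% and 41.5% upon washout. E2f1 took 7.88% and 8.77%, then 10.9% and 9.15%, while the share of E2f6 went from 3.72% and 3.88% to 4.89% and 4.81%. The log2 ratio of E2f7 and E2f8 over the activators, -2.091 and -1.966 in GSI and -2.214 and -2.088 upon washout, overlapped between the conditions.

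The ratio within the pocket proteins moved further. The log2 ratio of Rbl1 over Rb1 was -0.83 and -0.501 in GSI and 0.50 and 1.103 upon washout, a difference of 1.467 between the means, so that Rbl1 was below Rb1 per length in both GSI libraries and above it in both washout libraries. The log2 ratio of the activators over Rb1, computed after the values had been seen, was 0.505 and 1.156 in GSI and 2.116 and 2.777 upon washout. Replicate 2 gave the higher ratio in both conditions. With 2 libraries per condition an exact two-sided permutation test cannot give a p-value below 0.33, and these ratios are given without a test.

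Genes with a pattern like that of a member were sought for the members with the largest and the smallest absolute log2 fold change, by the distance between mean-centered log2 CPM over the 4 libraries. Nearest to E2f6 were Elmo1 (distance 0.0339), Nutf2 (0.0554) and Ska3 (0.0624), with log2 fold changes of 1.115, 1.111 and 1.067. Nearest to E2f7 were Slc5a9 (0.317), Grin3b (0.326) and Angptl2 (0.326), all farther from E2f7 than the former were from E2f6.

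The partners of the E2Fs did not move as a block. Tfdp1, the main DP partner, went from 97.7 and 117 CPM to 277 and 242 CPM and rose by 1.27 on the log2 scale (adjusted p = 0.000731, edgeR), a larger value than that of any member, though within the interval of E2f6. Tfdp2, the other DP gene, fell by 0.497 (86.0 and 79.7 CPM, then 60.6 and 56.8 CPM, adjusted p = 0.00663). The list of the MuvB core and its partners holds 7 genes, through which E2f4 and pocket proteins repress or B-Myb and Foxm1 activate. Of these, 5 rose and 0 fell by the adjusted p-value, against 27.0% and 25.4% of all genes tested. Mybl2, which encodes B-Myb, rose by 1.15 (57.7 and 59.1 CPM, then 127 and 133 CPM), and Lin54, Lin9, Foxm1 and Rbbp4 by 0.741, 0.711, 0.51 and 0.506. Lin37 at -0.343 and Lin52 at 0.285 did not pass. With the total count alone, 3 of the 7 were higher, 0 of them past both thresholds, and 1, Lin37, was lower.

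Of 9 genes of the Polycomb-type complex that contains E2f6, 4 rose and 0 fell by the adjusted p-value. Among all genes tested, 27.0% rose and 25.4% fell by this rule. Pcgf6 rose by 0.915, Cbx3 by 0.863, L3mbtl2 by 0.847 and Max by 0.454, whereas Mga at 0.036, Ring1 at -0.135, Rnf2 at -0.02, Rybp at -0.216 and Yaf2 at -0.268 did not pass. The median over the 9 genes was 0.036, while E2f6 itself was at 1.10. With the correction for GC content and length 4 were higher, 2 (Rybp and Yaf2) were lower and the median was 0.285, and with the total count alone 2 were higher and the median was -0.163.

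The genes that act on the pocket proteins went both ways. All 3 D-type cyclins fell, with log2 fold changes of -2.54 for Ccnd2 (41.3 and 41.6 CPM, then 8.05 and 5.88 CPM), -1.26 for Ccnd1 (478 and 605 CPM, then 247 and 204 CPM) and -0.677 for Ccnd3. Their kinases rose, Cdk6 by 1.09 and Cdk4 by 0.817, as did Ccne2 by 1.49 (42.5 and 41.9 CPM, then 143 and 92.7 CPM), Ccne1 by 0.536 and Cdk2 by 0.394. Among the 4 kinase inhibitors tested, Cdkn1a (p21) fell by 2.56, from 118 and 124 CPM to 22.2 and 18.5 CPM. Cdkn1b (p27) and Cdkn2d fell too, at -0.819 and -0.726, and Cdkn2c rose by 0.399. Cdkn2a was listed at 0 in every library, Cdkn2b at no more than 1 read and Cdkn1c at 5 to 14 reads, so that no change was detectable for these at this depth.

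Over the 31 partners and regulators tested, Rbl2 included, 16 were higher and 8 lower by the adjusted p-value, with 4 in each direction past both thresholds and a median log2 fold change of 0.394. The shares of all genes tested were 27.0% higher and 25.4% lower by the adjusted p-value, and 7.74% and 11.7% past both thresholds, so that the lower counts are near the background. With the total count alone, 9 were higher and 9 lower. Cbx3, Ccne1, Cdk2, Cdkn2c, Foxm1, Max and Rbbp4 then no longer passed, and no gene that had passed the adjusted p-value changed its sign.

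**Figure D4:**
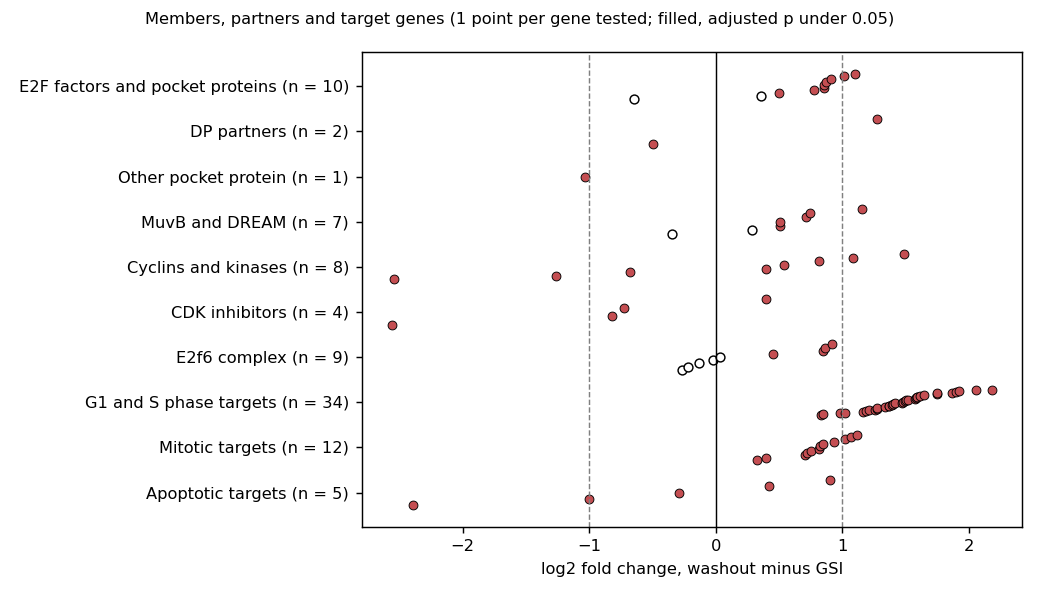
Log2 fold change, washout minus GSI, of the members and of each list of partners, regulators and targets, 1 point per gene tested, filled where the adjusted p-value was under 0.05, with dashed lines at -1 and 1. All 34 points of the G1 and S phase targets are filled and lie between 0.834 and 2.186, while cyclins and kinases and the apoptotic targets fall on both sides of 0.

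All 34 genes of the list of G1 and S phase targets, which activator E2Fs are known to switch on, rose by the adjusted p-value. Both thresholds were passed by 31. Of all genes tested, 27.0% were higher by the adjusted p-value and 7.74% past both thresholds. With the total count alone, 34 were higher and 28 passed both thresholds. The median log2 fold change of the 34 genes was 1.475, compared with 0.855 for the members. Among the largest were the checkpoint kinase gene Chek1 (21.9 and 28.6 CPM, then 124 and 104 CPM, log2 fold change 2.19) and the uracil glycosylase gene Ung (18.1 and 24.6 CPM, then 88.1 and 87.3 CPM, 2.055). The smallest were Gins3 at 0.834, Rrm2 at 0.849 and Dnmt1 at 0.979.

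Of 12 mitotic genes, which the MuvB complexes control later in the cycle, 12 rose and 3 passed both thresholds (Mad2l1 at 1.11, Bub1b at 1.065 and Ccna2 at 1.02), with a median of 0.819. Of all genes tested, 27.0% were higher by the adjusted p-value and 7.74% were higher past both thresholds. Among the 12, Ccnb2 at 0.325, Mki67 at 0.394 and Cdc20 at 0.708 were lowest. Ccnb2 and Mki67 did not pass with the total count alone. That scaling left 0 mitotic genes past both thresholds, and the correction for GC content and length left 1. In a culture measured in bulk, more cells in a given phase of the cycle and more RNA per cell cannot be told apart.

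The apoptotic genes known as E2f1 targets did not all follow the replication genes. Of 5 tested, 2 rose and 3 fell by the adjusted p-value, against 27.0% and 25.4% of all genes tested. Bbc3, which encodes Puma, fell by 2.39 (15.4 and 20.8 CPM, then 2.85 and 4.24 CPM). Bcl2l11 (-1.0) and Apaf1 (-0.288, adjusted p = 0.0467, edgeR) fell as well. With the total count alone, 0 rose and 3 fell. DESeq2 gave 2 higher and 2 lower, and the correction for GC content and length 1 higher and 2 lower. Apaf1 did not pass under either of the latter. Pmaip1 was listed at 0 in every library and Trp73 at no more than 1 read.

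**Figure D5:**
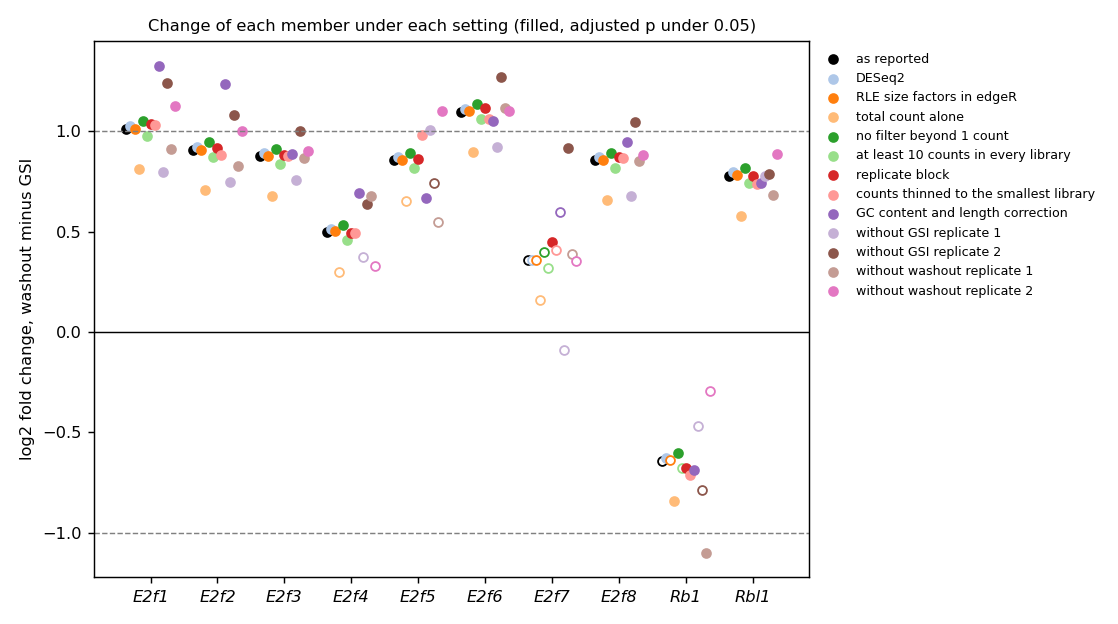
Log2 fold change of each member in the main comparison and under 12 alternative settings, with filled points where the adjusted p-value was under 0.05. E2f1, E2f2, E2f3, E2f6, E2f8 and Rbl1 are filled throughout, E2f4 and E2f5 under 9 of 12, Rb1 under 7 and E2f7 under 2.

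The libraries held between 13716199 and 36364200 counts, with replicate 1 the deeper in both conditions, and members were covered by 94 to 6300 reads per library. Across genes, log2 CPM correlated at 0.989 within GSI, at 0.987 within washout and at 0.932 to 0.944 between the conditions. All 8 markers of progenitor T cells were detected, at summed levels of 5461 to 5973 CPM in GSI and 5645 to 5833 CPM upon washout. Within this sum Ptcra and Cd3g rose, by 2.37 and 0.86 on the log2 scale, Tcf7, Bcl11b and Thy1 fell, with log2 fold changes of -0.867, -0.724 and -0.577, and Rag1, Lck and Cd3e did not pass. Of the B cell markers, Ms4a1 and Pax5 were at 0 throughout, and the 4 together came to 0.531 to 0.548 CPM in GSI and 0.223 to 0.323 CPM upon washout. The 4 myeloid markers summed to 38.0 to 48.9 CPM in GSI and 4.91 to 5.49 CPM upon washout, nearly all of it Itgam, with Lyz2 at 0 throughout. The erythroid markers summed to 10.4 to 12.0 CPM and 4.39 to 4.99 CPM, with Hba-a1 at 0 throughout. The part of these cells in the results was not tested.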

How the data were processed

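RNA-Seq of 4 Beko libraries was analyzed, 2 kept in GSI and 2 after washout, grouped and numbered by their labels. After trimming, the authors used HISAT2 2.2.1 to place reads on mm9 with 1 alignment per read, ran summarizeOverlaps per gene, and deposited raw counts for 24391 genes, without normalization or filtering. DESeq2 1.24.0 is also named in the submitters' processing notes. Strand setting and overlap mode are not given in the sources used here.

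The washout counts were set against the GSI counts in edgeR 4.0.16 (R 4.3.3; filterByExpr, TMM, quasi-likelihood test without covariates) over the 12266 genes that passed the filter, all 10 members among them. As in the study's methods, calls needed an adjusted p under 0.05 and an absolute log2 fold change over 1. The standard error is the log2 fold change divided by the root of the F statistic. The common biological coefficient of variation was 0.121. The script was tested on simulated counts. Gene positions and exon lengths are from GENCODE vM1 (20641 symbols matched), and promoter windows from RefSeq.

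Members, lists and tests were chosen with earlier results of these data known. All members and all partner and regulator genes were named, and of the target lists the 3 highest and lowest, except for a few genes that are not reported here. Lpar6 and Rcbtb2 are given because their exons overlap those of Rb1. Alternatives were DESeq2 1.42.0, RLE factors, the total count alone, the replicate block, no filter, a minimum of 10 counts per library, thinned counts, glmTreat and leaving out each library, in which case the lone library is assumed to vary like the others. A correction for GC content and length was chosen after seeing the data.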

Additional observations from a re-analysis of the deposited data

How the results depend on the processing

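Of the 120 log2 fold changes of members under alternative settings, 1 changed sign: E2f7 ranged from -0.088 (without GSI replicate 1) to 0.916 over the left-out libraries. The 2 members past both thresholds became 0 with the total count alone or with glmTreat against a log2 fold change of 1, 1 with at least 10 counts in every library, and 1 to 5 when each library was left out in turn (5 without GSI replicate 2, 4 without washout replicate 2). Without GSI replicate 1 the log2 fold changes of E2f1 and E2f6 were 0.799 and 0.924. Both E2f1 and E2f6 thus pass both thresholds by a margin that these choices decide. Members lower past both thresholds, 0 in the main comparison, were 0 to 1 when libraries were left out, the 1 being Rb1 without washout replicate 1. By the adjusted p-value alone 1 member, Rb1, was lower with DESeq2, the total count alone, no filter, thinned counts, the GC content and length correction, and without washout replicate 1 (0 to 1 over the left-out libraries). Members higher by the adjusted p-value, 8 in the main comparison, numbered 6 to 9. glmTreat left 19 of the 31 G1 and S phase targets, 0 of 4 partners and regulators higher and 2 of 4 lower, and the total count alone left 2 of the 4 higher. The causes were not tested, apart from glmTreat, which asks for more than the limit by construction.

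Replicates 1 and 2 of the conditions share a number only, and no label gives them a common batch. The differences between replicates 1 and 2 in GSI and in washout correlated at 0.484 over genes. With the replicate block, 1 member, Rb1, was lower by the adjusted p-value (log2 fold change -0.677, adjusted p = 8.39e-07, edgeR). E2f7 passed at 0.451 (adjusted p = 0.0184, edgeR). Standard errors were 0.0948 for Rb1 and 0.165 for E2f7, against 0.256 and 0.309 without the block. Yet E2f7 went from 8.44 to 15.5 CPM in replicate 1 and from 16.7 to 16.1 CPM in replicate 2. With 2 pairs of libraries, these p-values are no measure of the spread between pairs. Past both thresholds, 981 genes were higher and 1576 lower with the block, compared with 950 and 1437 without it. Over all genes, glmTreat called 308 higher and 501 lower, the total count alone 586 and 1963, and the GC correction, which used 10455 genes, 905 and 1022. E2f5 had the fewest reads of the members. With 2 libraries per condition a single library decides whether E2f4, E2f5, E2f7 and Rb1 pass the adjusted p-value. Likewise, a single library decides whether E2f1 and E2f6 exceed a log2 fold change of 1.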
